A study of Homo sapiens with 21 samples.

Results

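The M1 clone of the breast cancer line SUM149PT was compared with the EM2 clone in 6 of the 21 libraries of the series, 3 of each. SUM149PT is an inflammatory breast cancer cell line that the labels give as negative for estrogen and progesterone receptor. M1 and EM2 are both clones of it, untreated and grown under the same recommended conditions, and the series title speaks of an intermediate state in the transition from epithelial to mesenchymal cells. The letters in the clone names were read as mesenchymal (M) and as intermediate (EM). Poly(A) RNA of whole cultures was sequenced, so fewer cells that make a transcript and less of it per cell cannot be told apart, and the labels do not say whether the 3 libraries of a clone come from separate cultures. The p-values then measure only the spread between these libraries, which may be technical. Each state is represented here by 1 clone, so a difference between the states and a difference between these clones cannot be told apart. Among the 6 other lines, EM2 lay nearest to M1, with a root mean square log2 difference of 1.24 over 18632 genes, followed by EM3 (1.36), EM1 (1.46), Parental (1.48), E (1.62) and M2 (2.00). Total expected counts were 37474154, 46571768 and 42373975 in M1 and 44709056, 32233088 and 42744372 in EM2.

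Epithelial cells are held together by cadherin junctions, tight junctions and desmosomes, and rest on keratin filaments. The transcription factors GRHL2 and OVOL2 and the microRNAs of the miR-200 family keep this program active, and the repressors ZEB1 and ZEB2 switch it off by binding short E-box motifs (CACCTG) in the promoters of epithelial genes. The miR-200 microRNAs in turn repress ZEB1 and ZEB2, so that the sides of this loop hold each other down. Cells that pass to the mesenchymal side make vimentin, other cadherins, collagens and proteases that remodel the matrix. Intermediate cells are described as carrying parts of both programs, and the comparison asks what the full loss of the epithelial side adds.

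The list named for the miR-200 and miR-205 host transcripts also held hosts of other microRNAs, MIR503HG, MIR34AHG and MIR22HG. Of its 5 tested transcripts, 2 fell and 1 rose. Those that fell were the hosts of miR-200c with miR-141 and of miR-205, and both had no count in M1. MIR503HG, the one that rose, is not a host of miR-200 or miR-205, and lost its call without M1 replicate 3, EM2 replicate 1 or EM2 replicate 3. MIR200CHG, which carries miR-200c and miR-141, had no count in any M1 library and 7.10, 5.51 and 9.64 TPM (a level per transcript length, scaled to the same total in each library) in the EM2 libraries, at least 17-fold lower in M1 when 3 counts over the clone are taken as the detection limit (edgeR, adjusted p = 0.00373). MIR205HG, which carries miR-205, had no count in M1 and 2.14, 3.99 and 3.92 TPM in EM2, at least 142-fold lower (edgeR, adjusted p = 0.000645). Poly(A) libraries measure these host transcripts and not the mature microRNAs. The mature sequences are shown because their seeds (bases 2 to 8, in capitals, RefSeq GRCh38.p14) define what they can pair with.
hsa-miR-200c-3p (chr12:6963742-6963764, plus strand): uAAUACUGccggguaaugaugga
hsa-miR-141-3p (chr12:6964155-6964176, plus strand): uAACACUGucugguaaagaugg
hsa-miR-205-5p (chr1:209432166-209432187, plus strand): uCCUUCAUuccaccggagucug
ZEB1, the best known target of these microRNAs, stood at 28, 40 and 32.0 TPM in M1, against 1.98, 1.37 and 0.63 TPM in EM2. All M1 libraries lay far above all EM2 libraries, and the log2 fold was 5.04 ± 0.27 (SE; edgeR, adjusted p = 1.65e-05). Its relative ZEB2 stood at 19.2, 18.5 and 13.4 TPM in M1 and 4.93, 10.4 and 5.09 TPM in EM2, a log2 fold of 1.55 ± 0.25 (edgeR, adjusted p = 0.003).

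Across the transcriptome, M1 differed from EM2 in 4297 of 16410 genes tested (edgeR quasi-likelihood test, Benjamini-Hochberg adjusted p under 0.05), which is 26.2% of them. M1 was higher in 2101 (12.8%) and lower in 2196 (13.4%), and the median log2 fold over all genes tested was 0.00. These shares are the background against which the counts for each group of genes below are read. The groups were lists of genes with a known role, and a list is described by how many of its tested members passed in each direction and by its median log2 fold. Of the calls, 826 had a log2 fold of at least 3 in size, 398 higher and 428 lower. The fit had a library set term, replicate 3 against replicates 1 and 2. Alternatives named beside results drop that term, fit all 18 libraries of the clones, or test TPM with limma. The count of calls was 2782 without M1 replicate 3 and 2770 without EM2 replicate 3.

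**Figure D1:**
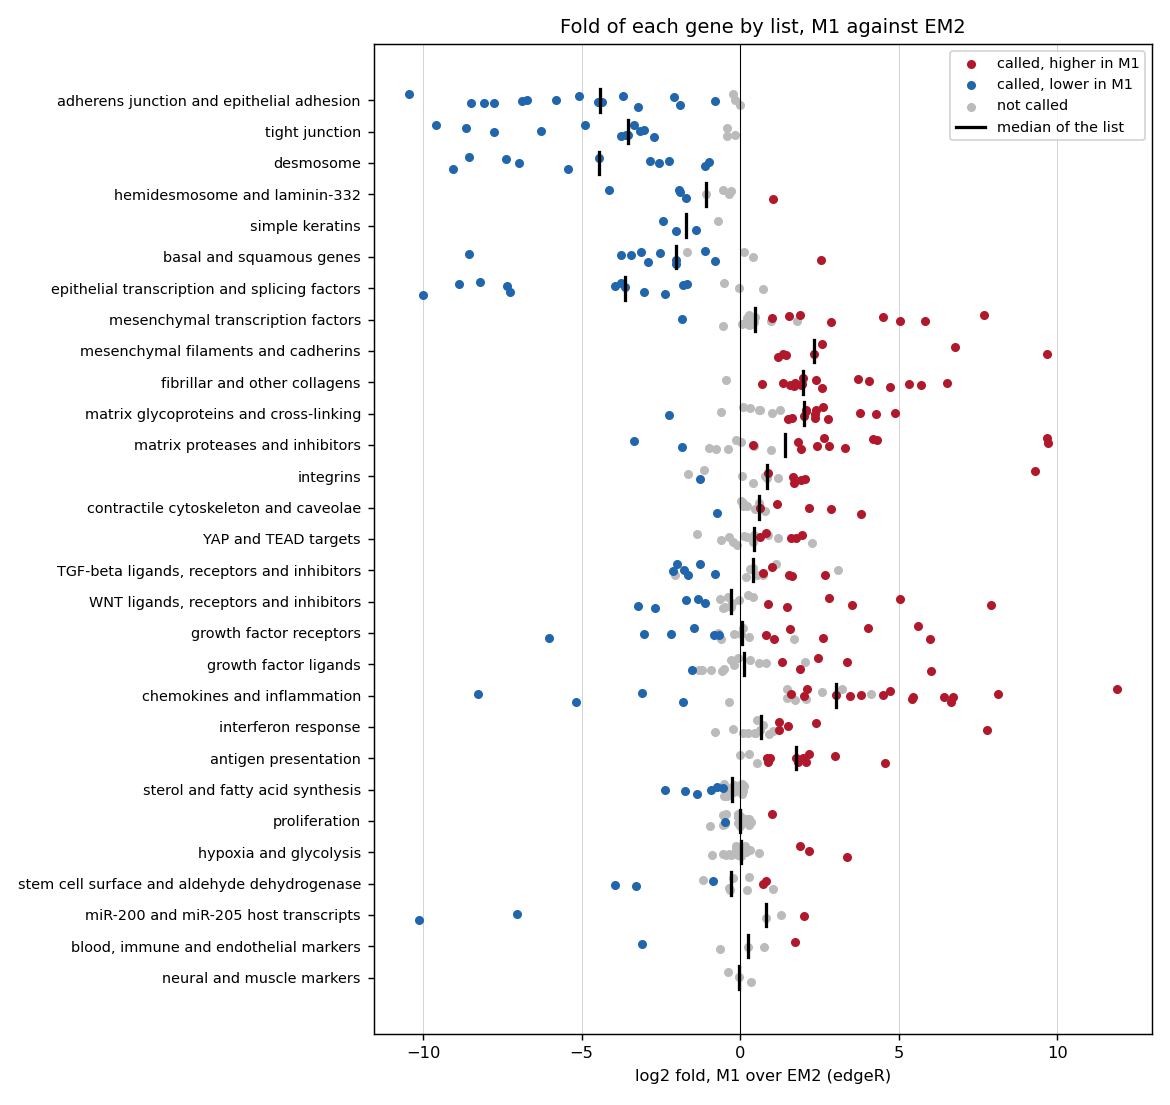
Log2 fold of M1 over EM2 (x axis) for every tested gene of 29 lists (rows); red points were called higher in M1, blue points lower, grey points were not called, and the black bar is the median of the list. The junction, desmosome and epithelial factor lists have medians of -4.42, -3.55, -4.44 and -3.64, the collagens 1.99 and the chemokines 3.03, and the proliferation list is centred at 0.01.

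Transcription and splicing factors of epithelial cells fell in M1, 12 of 15 tested and none higher, with a median log2 fold of -3.64. GRHL2, a factor that opens epithelial enhancers, measured 0.02, 0.01 and 0.02 TPM in M1, against 149, 128 and 112 TPM in EM2. The groups are separated by several orders of magnitude (log2 fold -10.02 ± 0.32; edgeR, adjusted p = 3.27e-06). The size of the GRHL2 level in EM2 rests on short effective lengths, 205 to 413 bases there, while its counts were 2300, 1872 and 1244. OVOL2, a zinc finger repressor of mesenchymal genes, had 3 counts in all of M1 and 987 in EM2, a ratio of 348 (95% counting interval 119 to 1688; edgeR, adjusted p = 2.88e-05). ESRP1, which directs epithelial splicing, stood at 0.79, 0.04 and 0.22 TPM in M1 and 31.8, 65.7 and 28.8 TPM in EM2 (log2 fold -8.87 ± 0.66; edgeR, adjusted p = 0.000364). Its paralog ESRP2 stood at 2.36, 1.54 and 1.53 TPM in M1, against 25.6, 17.8 and 16.2 TPM in EM2 (log2 fold -3.76 ± 0.28; edgeR, adjusted p = 6.52e-05). GRHL1, OVOL1, FOXA1, GATA3, TFAP2A and RBM47 fell as well, with log2 folds between -7.36 for OVOL1 and -1.68 for GATA3. KLF5 (21.4, 18.8 and 30.3 TPM in M1, 21.6, 27.5 and 70.2 TPM in EM2) and TFAP2C (32.9, 54.4 and 52.1 TPM in M1, 29.1, 19.7 and 29.1 TPM in EM2) did not pass the test and stayed expressed in both clones (edgeR, adjusted p = 0.175 and 0.084).

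The adherens junction list of 18 genes also held surface proteases with their inhibitors, polarity genes and the mucin MUC1. Of the 18, 15 fell in M1 and none rose, with a median log2 fold of -4.42. E-cadherin (CDH1, chr16:68737225-68835548, hg38), the cadherin that defines epithelial contacts, measured 0.12, 0.07 and 0.05 TPM in M1, against 30.5, 26.8 and 95.1 TPM in EM2. CDH1 had 6, 3 and 3 counts in the M1 libraries, and the log2 fold was -10.45 ± 0.45 (edgeR, adjusted p = 1.24e-05). P-cadherin (CDH3), the cadherin of basal breast cells, stood at 0.61, 0.28 and 0.09 TPM in M1 and 51.6, 92.5 and 83.8 TPM in EM2 (log2 fold -8.50 ± 0.32; edgeR, adjusted p = 3.86e-06). EPCAM, an adhesion molecule of simple epithelia, stood at 3.87, 1.51 and 0.56 TPM in M1, against 159, 183 and 107 TPM in EM2 (log2 fold -6.72 ± 0.41; edgeR, adjusted p = 8.36e-05). The protease ST14 (matriptase) and its inhibitor SPINT2, which act together at the epithelial surface, fell with log2 folds of -7.78 ± 0.33 and -8.07 ± 0.25, and SPINT2 stood at 3.29, 1.19 and 1.8 TPM in M1 and 479, 685 and 551 TPM in EM2. The polarity genes CRB3, LLGL2 and PARD6B fell by 6.87, 4.49 and 1.91 on the log2 scale. The catenins link cadherins to actin. CTNNA1 stood at 250, 272 and 221 TPM in M1 and 193, 247 and 278 TPM in EM2, and CTNNB1 at 108, 119 and 95 TPM in M1 and 131, 105 and 117 TPM in EM2, and neither passed the test (edgeR, adjusted p = 0.518 and 0.332). Plakoglobin (JUP), the catenin shared with desmosomes, fell to 2.71, 1.26 and 1.81 TPM in M1, against 37.9, 56.4 and 81.3 TPM in EM2 (log2 fold -5.08 ± 0.25; edgeR, adjusted p = 1.23e-05).

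**Figure D2:**
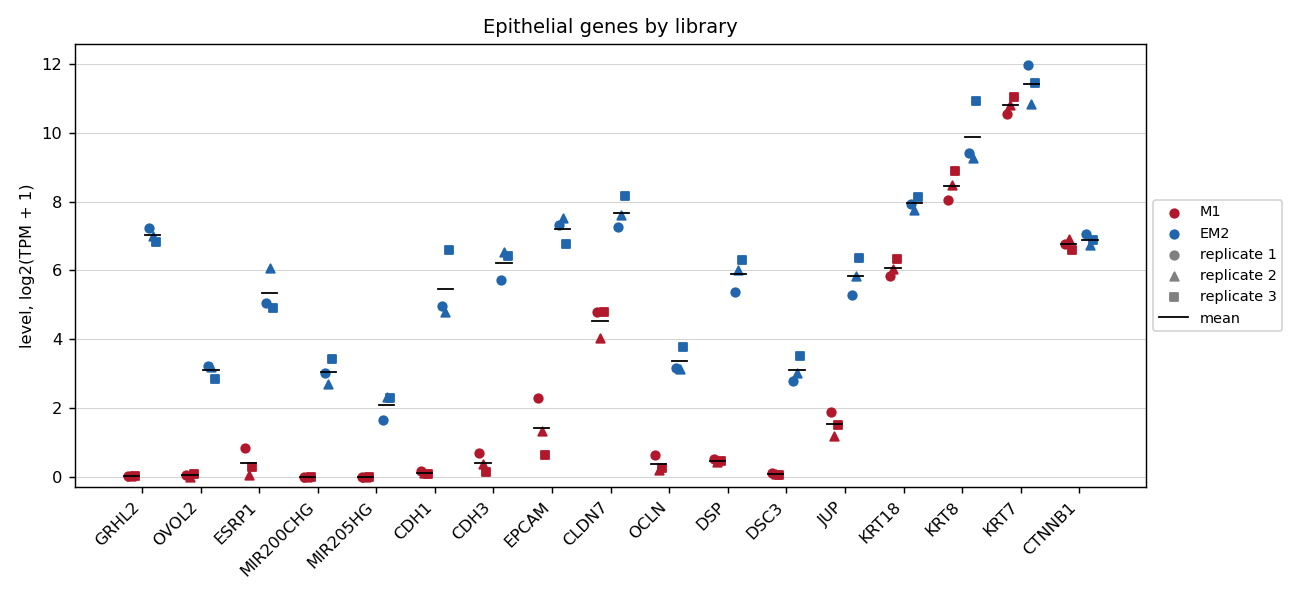
Level of 17 genes as log2(TPM + 1) (y axis) in each library, M1 in red on the left and EM2 in blue on the right of each gene, with symbols for the replicates and a bar at the mean. GRHL2, OVOL2, both microRNA host transcripts and CDH1 lie at or near 0 in M1, KRT18 and KRT8 are lower but high in both clones, and the ranges of KRT7 and CTNNB1 overlap.

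Tight junction genes, which seal the space between epithelial cells, fell in 12 of 15 cases with none higher (median log2 fold -3.55). Occludin (OCLN) stood at 0.54, 0.14 and 0.20 TPM in M1 and 7.95, 7.84 and 12.7 TPM in EM2 (log2 fold -4.89 ± 0.38; edgeR, adjusted p = 9.83e-05). LSR, which organises tricellular contacts, stood at 0.60, 0.55 and 0.62 TPM in M1 and 52.2, 36.4 and 69.1 TPM in EM2 (log2 fold -6.27 ± 0.24; edgeR, adjusted p = 3.86e-06). CLDN7, a claudin that forms the seal, fell but was still present, at 26.4, 15.5 and 26.9 TPM in M1 and 153, 194 and 284 TPM in EM2 (log2 fold -3.36 ± 0.21; edgeR, adjusted p = 2.9e-05). In M2, the other clone named mesenchymal, CLDN7 averaged 0.14 ± 0.15 TPM (SD, n = 3). The scaffold gene TJP1 did not pass the test (log2 fold -0.17) and stood at 50.7, 54.2 and 49.4 TPM in M1 and 58.7, 46.4 and 89.6 TPM in EM2.

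All 11 desmosome genes fell, with a median log2 fold of -4.44. Desmoplakin (DSP), which ties the desmosome to keratin, stood at 0.42, 0.33 and 0.36 TPM in M1 and 40.1, 63.1 and 78.4 TPM in EM2 (log2 fold -7.40 ± 0.27; edgeR, adjusted p = 3.86e-06). The desmosomal cadherins DSC2, DSG3 and DSC3 fell by 9.05, 8.55 and 6.97 on the log2 scale. DSG2 stayed at 13.8, 11.7 and 6.85 TPM in M1, against 38.3, 58.4 and 41.8 TPM in EM2 (log2 fold -2.26 ± 0.21; edgeR, adjusted p = 0.000159). Envoplakin (EVPL) had the smallest fold of them, -0.98, and lost its call without EM2 replicate 3 or when TPM was tested, with 10 genes then called.

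Promoters are shown because ZEB1, which rose, is known to bind E-box letters. The motif searched was CACCTG on either strand, which reads CAGGTG on the other, in the 250 bases before a RefSeq start. Of the 50 junction, desmosome and epithelial factor genes lower in M1, 27 had a promoter in the table and 15 of them (55.6%) held the motif at any listed start, against 5635 of 27305 genes (20.6%) in the whole table. The sets were not matched for base composition or number of starts, and a match is a description of letters, not a bound site. CRB3 held 5 matches, KDF1 (a regulator of keratinocyte differentiation) 2 and MIR200CHG 1, in capitals, and these promoters were chosen for display because they hold it. KDF1 and MIR200CHG are not among the 50 genes and do not enter that share.
CRB3 (chr19:6464021-6464270, plus strand, GRCh38.p14): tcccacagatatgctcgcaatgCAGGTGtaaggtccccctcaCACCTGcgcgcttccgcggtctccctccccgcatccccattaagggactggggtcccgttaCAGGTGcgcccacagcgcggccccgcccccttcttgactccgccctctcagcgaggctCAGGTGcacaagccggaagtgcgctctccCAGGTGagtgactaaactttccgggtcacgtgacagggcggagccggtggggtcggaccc
KDF1 (chr1:26960469-26960718, minus strand, GRCh38.p14): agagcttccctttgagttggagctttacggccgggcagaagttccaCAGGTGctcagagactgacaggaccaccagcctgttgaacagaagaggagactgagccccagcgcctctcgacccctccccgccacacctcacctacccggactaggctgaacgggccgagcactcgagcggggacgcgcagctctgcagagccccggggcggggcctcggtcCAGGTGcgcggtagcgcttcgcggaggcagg
MIR200CHG (chr12:6962995-6963244, plus strand, GRCh38.p14): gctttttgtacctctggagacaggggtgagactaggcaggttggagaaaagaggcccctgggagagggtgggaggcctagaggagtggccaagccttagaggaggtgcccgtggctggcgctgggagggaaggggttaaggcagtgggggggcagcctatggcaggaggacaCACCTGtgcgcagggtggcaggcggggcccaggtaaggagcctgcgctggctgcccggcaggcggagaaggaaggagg
CRB3 stood at 0.05, 0.02 and 0.10 TPM in M1 and 7.37, 6.23 and 10.5 TPM in EM2. KDF1 had 1 count in M1 and 1574 in EM2, a ratio of 1663 (95% counting interval 298 to 65708; edgeR, adjusted p = 1.22e-05).

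Of 4 keratins of simple epithelia, 3 fell (median log2 fold -1.71). KRT18 stood at 56.0, 64.2 and 78.9 TPM in M1 and 245, 217 and 279 TPM in EM2 (log2 fold -2.03 ± 0.17; edgeR, adjusted p = 9.55e-05). Its partner KRT8 stood at 263, 355 and 469 TPM in M1 and 675, 617 and 1941 TPM in EM2 (log2 fold -1.38 ± 0.21; edgeR, adjusted p = 0.00243). KRT7 remained among the abundant transcripts of M1, at 1501, 1805 and 2118 TPM, against 4054, 1818 and 2777 TPM in EM2, and did not pass the test (log2 fold -0.69 ± 0.23; edgeR, adjusted p = 0.0661). KRT19 was called lower (log2 fold -2.45 ± 0.56; edgeR, adjusted p = 0.025), but not without M1 replicate 1 or 2 (up to 0.167 over the alternatives).

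Genes of basal cells, the myoepithelial side of the breast duct, and of squamous cells fell in 10 of 14 cases, with 1 higher and a median log2 fold of -2.02. The number lower was 7 without the library set term or without EM2 replicate 1. KRT81, KRT6A, S100A2, KRT15 and SERPINB5 each lost the call in some alternative. The one higher, S100A8, lost its call without M1 replicate 3 or EM2 replicate 3. KRT5 stood at 40.5, 30.8 and 28.3 TPM in M1 and 112, 82.8 and 203 TPM in EM2 (log2 fold -2.03 ± 0.30; edgeR, adjusted p = 0.00288). TP63, the master factor of basal cells, was low in both clones, at 0.06, 0.07 and 0.03 TPM in M1 and 0.39, 0.58 and 1.89 TPM in EM2 (log2 fold -3.75 ± 0.55; edgeR, adjusted p = 0.00187). SFN (stratifin) stood at 52.2, 44.0 and 69.3 TPM in M1 and 231, 249 and 415 TPM in EM2 (log2 fold -2.53 ± 0.14; edgeR, adjusted p = 1.57e-05). KRT6B fell by 8.57 on the log2 scale, though its reads are hard to assign between it and its near copy KRT6A. KRT17 varied from 57.5 to 273 TPM in M1 and from 33.5 to 920 TPM in EM2 and was not called. Among 9 hemidesmosome genes, which anchor cells to the basement membrane, 4 fell and 1 rose (median log2 fold -1.08). The integrin pair ITGA6 and ITGB4 fell with log2 folds of -1.92 ± 0.28 and -1.91 ± 0.27 (edgeR, adjusted p = 0.00286 and 0.00159). ITGB4 stood at 2.29, 5.36 and 8.34 TPM in M1 and 19.2, 14 and 22.1 TPM in EM2. The laminin gene LAMB3 was not called (log2 fold -0.54 ± 0.86).

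On the mesenchymal side, 8 of 21 transcription factors rose and 1 fell (median log2 fold 0.46). The number higher was 6 without M1 replicate 2 and 11 with DESeq2. FOXC2 and FOXD1, among the 8, each lost the call when some single library was left out. Beside ZEB1 and ZEB2, the homeobox factors PRRX1 and PRRX2 rose. PRRX1 stood at 16.5, 10.4 and 6.10 TPM in M1 and 0.66, 2.46 and 0.45 TPM in EM2 (log2 fold 4.52 ± 0.29; edgeR, adjusted p = 2.9e-05), and PRRX2 at 5.08, 6.92 and 6.21 TPM in M1 and 0.10, 0.14 and 0.06 TPM in EM2 (log2 fold 5.84 ± 0.41; edgeR, adjusted p = 4.55e-05). Their means were at most 1.19 TPM in each of the other lines, M2 included. Goosecoid (GSC), a factor of the early embryo, stood at 0.89, 0.42 and 0.59 TPM in M1 and had no count in EM2, at least 24-fold higher (edgeR, adjusted p = 0.00277). The snail and twist factors, also known drivers of the transition, were not called. SNAI2 stood at 42.8, 50.0 and 39.2 TPM in M1 and 26.7, 24.2 and 60.1 TPM in EM2 (edgeR, adjusted p = 0.459), TWIST1 at 57.5, 17.9 and 15.1 TPM in M1 and 12.8, 45.1 and 11.2 TPM in EM2 (0.783), and SNAI1 at 26.0, 16.9 and 24.1 TPM in M1 and 7.00, 28.5 and 15.9 TPM in EM2 (0.716). TWIST2 had a log2 fold of 0.44 ± 0.16 and missed the threshold (edgeR, adjusted p = 0.0773). SOX9, a factor of progenitor cells, fell to 6.98, 4.62 and 6.44 TPM in M1, against 15.7, 15.4 and 31.8 TPM in EM2 (log2 fold -1.84 ± 0.23; edgeR, adjusted p = 0.000782).

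All 7 tested genes of mesenchymal filaments and cadherins rose (median log2 fold 2.32). The protocadherin PCDH7 lost its call in both tests of TPM, which left out 2 of the others as too low and called 4, and also without EM2 replicate 1, without the library set term and in the fit of 18 libraries (adjusted p up to 0.227). Vimentin (VIM), the filament of mesenchymal cells, stood at 3097, 2728 and 2168 TPM in M1 and was already high in EM2, at 1090, 1321 and 480 TPM (log2 fold 1.46 ± 0.21; edgeR, adjusted p = 0.00164). N-cadherin (CDH2), which replaces E-cadherin in many mesenchymal cells, stood at 82.0, 89.5 and 74.4 TPM in M1 and 24.2, 9.17 and 13.8 TPM in EM2 (log2 fold 2.32 ± 0.35; edgeR, adjusted p = 0.00419). The cadherin CDH11, known from osteoblasts and fibroblasts, stood at 54.2, 68.1 and 71.8 TPM in M1 and 0.24, 0.04 and 0.13 TPM in EM2 (log2 fold 9.68 ± 0.28; edgeR, adjusted p = 3.27e-06). Its level in the other lines was 9.61 ± 8.84 TPM in EM1, 19.4 ± 10.9 in EM3, 3.25 ± 0.33 in E and 2.64 ± 2.72 in Parental (SD, n = 3), with 0.00 TPM in M2. EM2 had the lowest mean of the 3 EM clones.

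**Figure D3:**
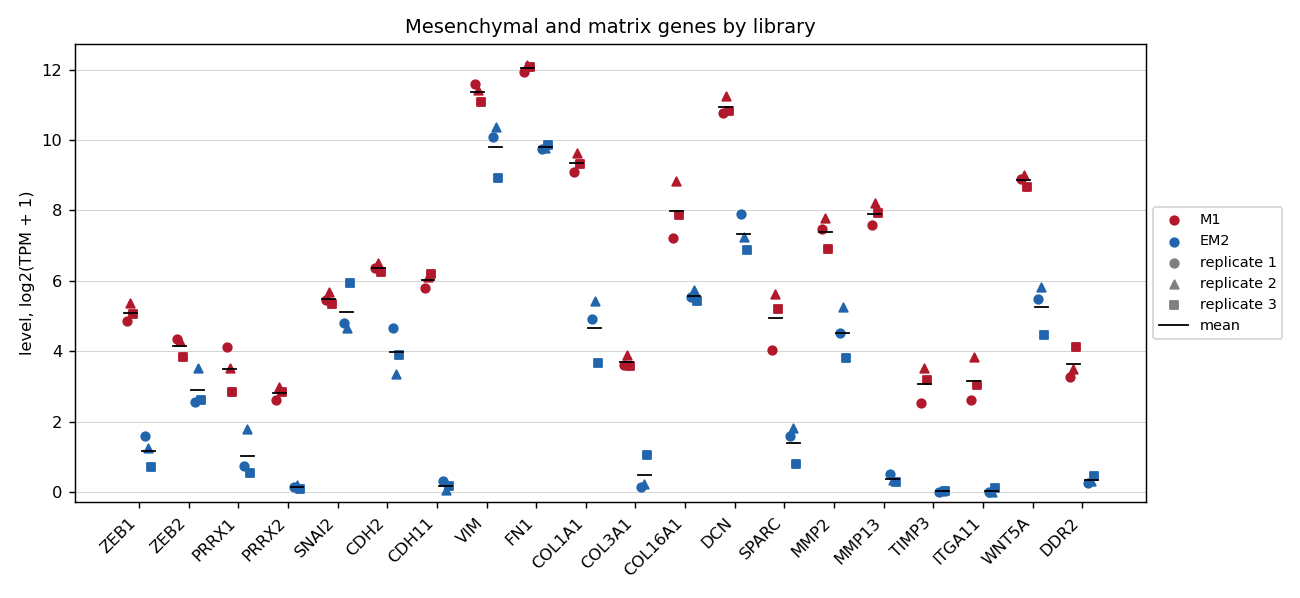
Level of 20 mesenchymal and matrix genes as log2(TPM + 1) (y axis) by library, M1 in red on the left and EM2 in blue on the right of each gene, with symbols for the replicates and a bar at the mean. VIM and FN1 are high in both clones and higher in M1, CDH11, MMP13, TIMP3 and ITGA11 lie near 0 in EM2, and the ranges of SNAI2 overlap.

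In the collagen list 16 of 17 tested genes rose and none fell, with a median log2 fold of 1.99. The number higher was 13 without M1 replicate 2, and COL6A3, COL7A1, COL13A1 and COL5A3 each lost the call in some alternative. Of all 30 collagen genes tested, in and outside the list, 24 rose and 2 fell (edgeR). Those 2 are chains of basement membrane and of hemidesmosomes, COL4A5 (log2 fold -0.93 ± 0.24; edgeR, adjusted p = 0.0221) and COL17A1 (log2 fold -1.72 ± 0.31; edgeR, adjusted p = 0.00485). COL1A1, the main fibrillar collagen of connective tissue, stood at 549, 789 and 641 TPM in M1 and 29, 41.6 and 11.6 TPM in EM2 (log2 fold 4.72 ± 0.50; edgeR, adjusted p = 0.00145). COL3A1, its companion in elastic tissue, stood at 11.3, 13.9 and 11 TPM in M1 and 0.10, 0.17 and 1.07 TPM in EM2 (log2 fold 6.52 ± 0.33; edgeR, adjusted p = 1.25e-05). COL1A2, which pairs with COL1A1 in type I collagen, reached only 2.68, 3.67 and 4.81 TPM in M1, against 0.13, 0.08 and 0.13 TPM in EM2 (log2 fold 5.34 ± 0.48; edgeR, adjusted p = 0.000191), so in M1 the level of COL1A1 was far above that of COL1A2. The basement membrane chains COL4A1 and COL4A2 rose by log2 folds of 2.39 ± 0.33 and 1.35 ± 0.21, and the type VI chains COL6A1 and COL6A2 by 1.96 ± 0.27 and 1.73 ± 0.31. COL16A1 stood at 148, 461 and 232 TPM in M1 and 45.1, 52.9 and 42.2 TPM in EM2 (log2 fold 1.91 ± 0.30; edgeR, adjusted p = 0.00379). Within the list, COL18A1 did not pass (log2 fold -0.45 ± 0.22).

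Of the matrix glycoproteins and cross-linking enzymes, 13 of 21 rose and 1 fell (median log2 fold 2.01). Fibronectin (FN1), the scaffold on which other matrix is laid, stood at 3942, 4470 and 4344 TPM in M1 and 865, 883 and 928 TPM in EM2, with little spread in either clone (log2 fold 2.07 ± 0.16; edgeR, adjusted p = 7.6e-05). Decorin (DCN), a proteoglycan that binds collagen fibrils, stood at 1752, 2443 and 1807 TPM in M1 and 236, 150 and 117 TPM in EM2 (log2 fold 3.78 ± 0.21; edgeR, adjusted p = 1.65e-05). SPARC, a matrix protein that binds collagen, stood at 15.5, 47.9 and 35.7 TPM in M1 and 2.02, 2.53 and 0.73 TPM in EM2 (log2 fold 4.28 ± 0.53; edgeR, adjusted p = 0.00195). TGFBI, FBN1, NID2 and the cross-linking enzyme LOXL1 rose with log2 folds of 2.01, 2.35, 2.61 and 1.64. Thrombospondin (THBS1) was abundant in both clones and not called, at 1064, 3411 and 4673 TPM in M1 and 2157, 366 and 1876 TPM in EM2 (edgeR, adjusted p = 0.453). CTHRC1 was the one that fell, and a further gene was called lower without EM2 replicate 2 (log2 fold of CTHRC1 -2.24 ± 0.35; edgeR, adjusted p = 0.0025).

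Proteases that cut matrix, and their inhibitors, rose in 11 of 20 cases and fell in 2 (median log2 fold 1.41). The collagenase MMP13 stood at 191, 298 and 243 TPM in M1 and 0.43, 0.27 and 0.21 TPM in EM2 (log2 fold 9.72 ± 0.34; edgeR, adjusted p = 3.86e-06), and the mean was at most 0.30 TPM in each of the other lines. Gelatinase A (MMP2) stood at 177, 219 and 118 TPM in M1 and 22.1, 36.9 and 13.1 TPM in EM2 (log2 fold 2.80 ± 0.21; edgeR, adjusted p = 5.82e-05). Its membrane-bound activator MMP14 stood at 59.9, 108 and 107 TPM in M1 and 19.1, 34.5 and 20.4 TPM in EM2 (log2 fold 1.83 ± 0.30; edgeR, adjusted p = 0.00472). The inhibitors TIMP2 and TIMP3 rose together with the proteases, by log2 folds of 1.93 ± 0.15 and 9.68 ± 0.66, and TIMP3 stood at 4.80, 10.4 and 8.11 TPM in M1 with at most 0.02 TPM in EM2. TIMP1 was not called (log2 fold -0.77 ± 0.28; edgeR, adjusted p = 0.0876). MMP7 (matrilysin), a protease of epithelial cells, fell to 0.10, 0.08 and 0.05 TPM in M1, against 0.78, 0.73 and 0.71 TPM in EM2 (log2 fold -3.34 ± 0.48; edgeR, adjusted p = 0.00161). ADAM19, the other that fell, lost its call without M1 replicate 3, EM2 replicate 1 or EM2 replicate 3, with adjusted p up to 0.0957. The number lower was 4 without M1 replicate 2 or EM2 replicate 2, and 1 without M1 replicate 3, EM2 replicate 1 or EM2 replicate 3.

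Integrin genes, receptors for matrix, rose in 6 of 14 cases and fell in 1 (median log2 fold 0.85). The collagen-binding ITGA11 stood at 5.08, 13.4 and 7.14 TPM in M1 and 0.00, 0.00 and 0.07 TPM in EM2 (log2 fold 9.30 ± 0.60; edgeR, adjusted p = 6.03e-05), and ITGA1, also a collagen receptor, at 22.4, 37.9 and 37.3 TPM in M1 and 5.57, 5.15 and 11.6 TPM in EM2 (log2 fold 2.06 ± 0.25; edgeR, adjusted p = 0.00089). ITGA3, ITGA5, ITGA10, ITGB3 and the one that fell, ITGB5, each lost the call when some single library was left out, and 3 integrins were called higher without the library set term or with a replicate block, and 4 without M1 replicate 2, EM2 replicate 1 or EM2 replicate 2. None was called lower without M1 replicate 3 or EM2 replicate 3, and 2 were without M1 replicate 2 or EM2 replicate 2. The discoidin receptors, tyrosine kinases that bind collagen, changed in opposite directions. DDR2, the form of connective tissue, stood at 8.64, 10.2 and 16.4 TPM in M1 and 0.18, 0.24 and 0.36 TPM in EM2 (log2 fold 5.60 ± 0.21; edgeR, adjusted p = 3.86e-06). DDR1, the epithelial form, stood at 16.8, 20.7 and 19.4 TPM in M1 and 62.3, 71.8 and 93.6 TPM in EM2 (log2 fold -2.17 ± 0.16; edgeR, adjusted p = 5.83e-05).

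Growth factor receptors were called higher in 7 of 20 cases and lower in 6, with a median log2 fold of 0.06. The platelet-derived growth factor receptors PDGFRA and PDGFRB rose by log2 folds of 6 ± 0.55 and 4.03 ± 0.38. PDGFRA stood at 0.99, 1.24 and 0.46 TPM in M1 and 0.01, 0.01 and 0.00 TPM in EM2, and PDGFRB at 0.70, 0.59 and 0.50 TPM in M1 and 0.18, 0.07 and 0.07 TPM in EM2. FGFR1, NRP1 and INSR rose with log2 folds of 1.08, 1.58 and 2.60. ERBB3, a receptor of luminal cells, fell to 0.48, 0.16 and 0.44 TPM in M1, against 7.07, 20.5 and 11.3 TPM in EM2 (log2 fold -6.02 ± 0.65; edgeR, adjusted p = 0.00157), and MST1R to 15.1, 7.82 and 7.89 TPM in M1, against 58.8, 75.1 and 62.4 TPM in EM2 (log2 fold -3.04 ± 0.21; edgeR, adjusted p = 3.93e-05). EGFR and MET were not called (log2 folds -0.20 ± 0.30 and -0.61 ± 0.28). AXL stood at 86.9, 118 and 132 TPM in M1 and 75.2, 45.5 and 63.5 TPM in EM2 and was called only narrowly (log2 fold 0.81 ± 0.24; edgeR, adjusted p = 0.0432), not without M1 replicate 2 or 3 or EM2 replicate 2 or 3 (up to 0.18). Among ligands, 5 of 18 rose and 1 fell (median log2 fold 0.13), with 2 lower without M1 replicate 1 or M1 replicate 2, and 3 higher when TPM was tested, where 1 of the 5 was too low to be tested. VEGFA, the main angiogenic factor, stood at 214, 298 and 280 TPM in M1 and 50.2, 69.6 and 93.9 TPM in EM2 (log2 fold 1.88 ± 0.23; edgeR, adjusted p = 0.000926). NRG1, PDGFD and IGF2 rose by log2 folds of 2.44, 3.38 and 6.02, and GAS6, the ligand of AXL, fell (log2 fold -1.53 ± 0.24; edgeR, adjusted p = 0.00295).

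WNT pathway genes split, 6 of 20 higher and 5 lower (median log2 fold -0.27), with 3 lower without the library set term, and 3 when TPM was tested, where 1 of the 5 was too low to be tested. WNT5A and WNT5B, ligands known mainly for signalling without beta-catenin, rose. WNT5A stood at 474, 515 and 406 TPM in M1 and 44.0, 55.6 and 20.8 TPM in EM2 (log2 fold 3.52 ± 0.24; edgeR, adjusted p = 4.76e-05), and WNT5B at 11.2, 15.3 and 13 TPM in M1 and 0.05, 0.06 and 0.03 TPM in EM2 (log2 fold 7.91 ± 0.51; edgeR, adjusted p = 4.37e-05). The secreted antagonist SFRP1 fell to 12.5, 8.93 and 4.94 TPM in M1, against 60.3, 96.4 and 55.4 TPM in EM2 (log2 fold -3.21 ± 0.23; edgeR, adjusted p = 5.51e-05). AXIN2, a target of beta-catenin, was called higher but stayed at or below 0.18 TPM in every library, and LEF1 was not called (log2 fold -0.04 ± 0.27).

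In the TGF-beta list, 5 of 19 rose and 6 fell (median log2 fold 0.39). The accessory receptor TGFBR3 stood at 3.38, 2.00 and 1.58 TPM in M1 and 0.32, 1.08 and 0.15 TPM in EM2 (log2 fold 2.67 ± 0.41; edgeR, adjusted p = 0.00274), and the signalling receptor TGFBR1 at 49.9, 53.0 and 30.5 TPM in M1 and 25.9, 26.8 and 18.4 TPM in EM2 (log2 fold 1.01 ± 0.15; edgeR, adjusted p = 0.00155, and 0.0643 without the library set term). BMP4 and BAMBI fell by 2.12 and 1.98 on the log2 scale. The ligands TGFB1 and TGFB2 were not called (log2 folds 0.19 ± 0.15 and 0.72 ± 0.34). The 5 higher became 3 without M1 replicate 3, EM2 replicate 3 or the library set term, and the 6 lower became 3 without M1 replicate 1. Without M1 replicate 1 and EM2 replicate 2 together, 8 were higher. The BMP antagonist GREM1 stood at 680, 1793 and 1721 TPM in M1 and 316, 59.0 and 123 TPM in EM2, without overlap, and missed the threshold (log2 fold 3.08 ± 0.83; edgeR, adjusted p = 0.0569).

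Genes of chemokines and inflammation rose in 15 of 27 cases and fell in 4, and had the highest median log2 fold of the 29 lists, 3.03. CCL2, which recruits monocytes, stood at 28.5, 31.3 and 18.6 TPM in M1 and had no count in EM2, at least 456-fold higher (edgeR, adjusted p = 4.64e-05). Its mean was at most 0.04 TPM in each of the other lines. The neutrophil attractant CXCL6 stood at 405, 205 and 269 TPM in M1 and 3.10, 1.88 and 4.77 TPM in EM2 (log2 fold 6.43 ± 0.43; edgeR, adjusted p = 0.000152). CXCL1, of the same family, stood at 2085, 2384 and 2419 TPM in M1 and 166, 50.1 and 314 TPM in EM2 (log2 fold 3.82 ± 0.62; edgeR, adjusted p = 0.0105), a call that was lost without M1 replicate 1 or 2 (adjusted p up to 0.0923). The colony-stimulating factors CSF3 and CSF2 rose by log2 folds of 6.73 ± 0.40 and 5.43 ± 0.42, with CSF3 at 50.8, 72.7 and 169 TPM in M1 and 0.51, 0.45 and 2.63 TPM in EM2 (edgeR, adjusted p = 6.03e-05). Interleukin 1 beta (IL1B) stood at 54.2, 267 and 383 TPM in M1 and 1.59, 1.08 and 5.95 TPM in EM2 (log2 fold 6.66 ± 0.88; edgeR, adjusted p = 0.00706, and 0.052 with no low-count filter), while its natural antagonist IL1RN fell to 2 counts in M1, against 812 in EM2, a ratio of 429 (95% counting interval 118 to 3547; edgeR, adjusted p = 0.000163). PTGS2, the inducible cyclooxygenase, rose with a log2 fold of 2.10 ± 0.22. LCN2 and CXCL16, which epithelia secrete, fell by 5.18 and 3.09 on the log2 scale, and LCN2 stood at 2.50, 1.64 and 3.15 TPM in M1 and 46.6, 41.9 and 104 TPM in EM2.

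Some inflammatory genes also varied widely within the clones. M1 replicate 1 and EM2 replicate 2 deviated from their clones in the same direction (r = 0.61 between their deviations over 16410 genes, a description). IL6 stood at 85.6 TPM in M1 replicate 1 and at 325 and 465 TPM in the other M1 libraries, and at 1.06 TPM in EM2 replicate 2 and 7.50 and 12.4 TPM in the other EM2 libraries. M1 was above EM2 throughout, and IL6 was called (log2 fold 5.46 ± 1.10; edgeR, adjusted p = 0.0248), but not without any 1 of M1 replicates 1, 2 or 3 or EM2 replicates 1 or 3 (adjusted p up to 0.132). CXCL8 stood at 1311, 2436 and 2564 TPM in M1 and 95.7, 8.19 and 622 TPM in EM2 and did not pass (log2 fold 4.13 ± 1.38; edgeR, adjusted p = 0.0965), and IL11, LIF and CXCL3 did not either. The same libraries were low for targets of the YAP and TEAD factors: CCN1 stood at 77.1, 459 and 794 TPM in M1 and 127, 14 and 78.9 TPM in EM2, and CCN2 at 5.50, 32.1 and 57.5 TPM in M1 and 15.3, 2.11 and 18.1 TPM in EM2. They were high for proliferation genes, with TOP2A at 372, 196 and 110 TPM in M1 and 162, 295 and 81.6 TPM in EM2. Without both libraries, 18 inflammatory genes were called higher and 4 lower, and the part of this variation in the calls was not otherwise tested.

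**Figure D4:**
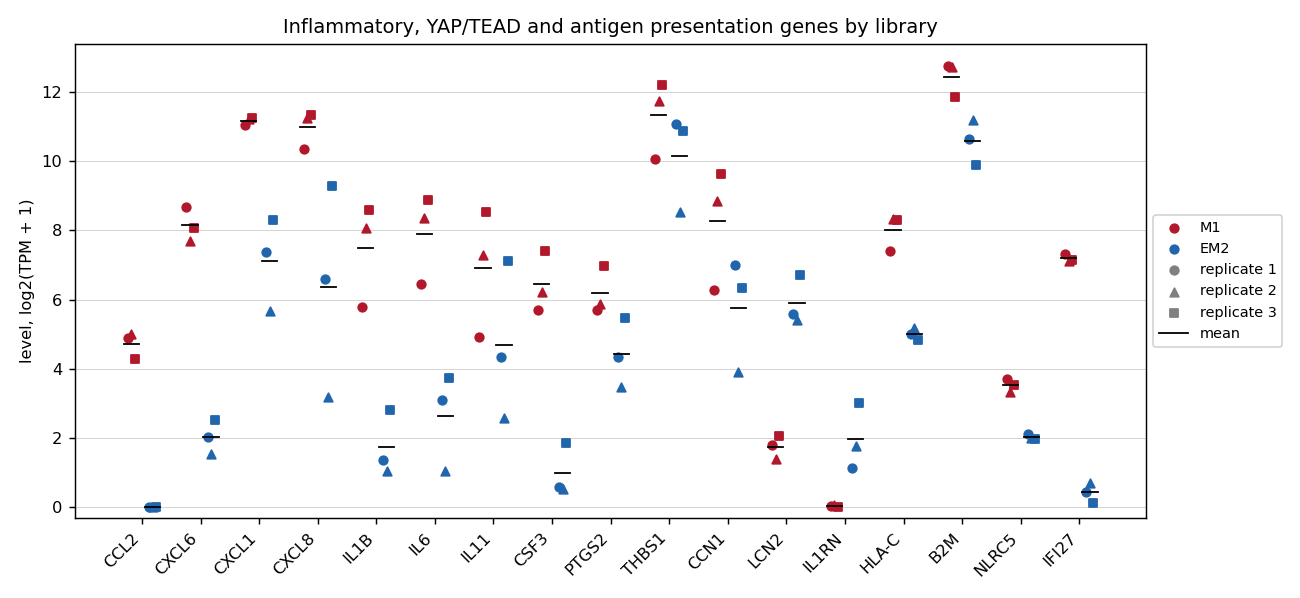
Level of 17 genes as log2(TPM + 1) (y axis) by library, M1 in red on the left and EM2 in blue on the right of each gene, with symbols for the replicates and a bar at the mean. CCL2, CXCL6, CSF3 and IFI27 separate the clones widely, LCN2 and IL1RN are lower in M1, and M1 replicate 1 (red circle) and EM2 replicate 2 (blue triangle) are the lowest of their clone for CXCL8, IL6, IL11, THBS1 and CCN1.

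The list of YAP and TEAD targets, which respond to tension, also held the factors YAP1, WWTR1, TEAD1 and TEAD4 themselves. The targets CCN1, CCN2, AMOTL2, AJUBA and F3 were not called. AXL, CRIM1, DLC1 and the factor TEAD1 were called higher, but each lost the call in some alternative. Of the 17 tested genes of the list, 5 rose and none fell (median log2 fold 0.43). The count was 1 without M1 replicate 2, 2 without M1 replicate 3, EM2 replicate 2 or EM2 replicate 3 or with a replicate block, 3 without the library set term, and 8 (with 2 lower) without M1 replicate 1 and EM2 replicate 2 together. PTPN14, a regulator of YAP, was called in every alternative, at 22, 22.8 and 15.5 TPM in M1 and 5.97, 7.87 and 4.94 TPM in EM2 (log2 fold 1.77 ± 0.14; edgeR, adjusted p = 7.6e-05). YAP1 and WWTR1 themselves were not called (log2 folds 0.39 ± 0.14 and -0.10 ± 0.26). In the contractile list 5 of 13 rose and 1 fell (median log2 fold 0.59), with 3 higher and none lower without M1 replicate 3 or EM2 replicate 3, and 2 higher and none lower without the library set term. Tropomyosin (TPM1, an actin-binding protein) stood at 162, 277 and 170 TPM in M1 and 37.7, 14.2 and 21.6 TPM in EM2 (log2 fold 2.87 ± 0.43; edgeR, adjusted p = 0.00507), and the caveolar gene CAV1 was high in both and not called (560, 481 and 441 TPM in M1, 666, 494 and 396 TPM in EM2).

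Antigen presentation genes, which load peptides on MHC class I, rose in 10 of 13 cases with none lower (median log2 fold 1.75). HLA-C stood at 169, 323 and 316 TPM in M1 and 31.4, 35.1 and 27.3 TPM in EM2 (log2 fold 2.99 ± 0.32; edgeR, adjusted p = 0.000789). HLA-B had 7317, 16895 and 16579 counts in M1 and 665, 488 and 481 counts in EM2 (log2 fold 4.58 ± 0.35; edgeR, adjusted p = 0.000185). Its TPM is not read as a level, because the effective length was only 36 to 98 bases, and reads of HLA genes can be assigned to a near-identical copy. The shared light chain B2M stood at 6851, 6771 and 3684 TPM in M1 and 1594, 2332 and 944 TPM in EM2 (log2 fold 1.75 ± 0.15; edgeR, adjusted p = 0.000127). NLRC5, the activator of these genes, stood at 12, 9.03 and 10.6 TPM in M1 and 3.36, 3.00 and 2.94 TPM in EM2 (log2 fold 1.82 ± 0.23; edgeR, adjusted p = 0.000922). Interferon response genes in the narrow sense rose in 5 of 16 cases with none lower (median log2 fold 0.66), and in 3 without M1 replicate 1, without EM2 replicate 1, or without M1 replicate 1 and EM2 replicate 2 together, and in 8 with DESeq2 or in the fit of 18 libraries. IFI27 stood at 157, 138 and 141 TPM in M1 and 0.36, 0.63 and 0.10 TPM in EM2 (log2 fold 7.80 ± 0.37; edgeR, adjusted p = 7.36e-06). EM2 had the lowest mean of the 7 lines for IFI27, which averaged 70.8 ± 32.4 TPM in EM1, 68.9 ± 22.6 in EM3 and 264 ± 58.6 in E (SD, n = 3). IFIT1, IFIT2 and IRF7 were not called.

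Of 24 proliferation genes 1 rose and 1 fell (median log2 fold 0.01). FOXM1, a factor of mitosis, stood at 85.5, 83.2 and 80.2 TPM in M1 and 43.9, 43.3 and 32.4 TPM in EM2 (log2 fold 0.99 ± 0.15; edgeR, adjusted p = 0.00179), while MKI67 stood at 78.7, 53.5 and 36.2 TPM in M1 and 49.1, 72.0 and 28 TPM in EM2. The gene that fell, MCM4, lost its call in 14 of 19 alternatives, among them each that left out a single library, and 3 genes were called lower without EM2 replicate 2. Sterol and fatty acid synthesis genes fell in 6 of 22 cases with none higher (median log2 fold -0.25), and in 2 without the library set term, where DHCR7, FASN, SCD and ACACA lost their calls. ACACA and SQLE also lost theirs without M1 replicate 1 or M1 replicate 2. In the hypoxia and glycolysis list 3 of 18 rose (16.7%, median log2 fold 0.03), near the 12.8% of all genes tested. They were VEGFA, adrenomedullin (ADM, log2 fold 3.38 ± 0.30) and the glucose transporter SLC2A3 (2.16 ± 0.27). Without EM2 replicate 2, 5 were called. Of 12 stem cell surface and aldehyde dehydrogenase genes 2 rose and 3 fell, and none was called higher without M1 replicate 3 or EM2 replicate 3. CD24, a surface protein low in breast cells of stem-like phenotype, fell to 6.64, 2.38 and 1.12 TPM in M1, against 37.9, 32.7 and 44.8 TPM in EM2 (log2 fold -3.95 ± 0.33; edgeR, adjusted p = 0.000172). CD44 stood at 1828, 2626 and 2456 TPM in M1 and 1522, 1276 and 1597 TPM in EM2 (log2 fold 0.80 ± 0.23; edgeR, adjusted p = 0.0333) and lost its call without M1 replicate 2 or 3 or any 1 EM2 library (up to 0.114).

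In all, 9 protein-coding genes called higher had a mean of at least 1 TPM in M1 and no count in EM2, and 8 called lower had none in M1 and at least 1 TPM in EM2. Beside CCL2, the higher ones included APOC3, an apolipoprotein (at least 32-fold), ARMCX6 (at least 177-fold), APCDD1, an inhibitor of WNT signalling (at least 108-fold), and LRMDA (at least 25-fold). ARMCX6 was expressed in most other lines and absent in EM2. It averaged 9.18 TPM in M2, 8.45 in EM3, 5.12 in EM1, 3.07 in Parental and 0.05 in E. LRMDA had 12, 24 and 44 counts in M1 and its TPM of 0.42, 3.69 and 34.0 rests on effective lengths of 26 to 781 bases. The lower ones included PODXL2, a relative of podocalyxin (at least 376-fold), the Golgi calcium pump ATP2C2 (at least 177-fold), EPN3, an endocytic adaptor (at least 126-fold), SOD3, the extracellular superoxide dismutase (at least 118-fold), and MIA (at least 38-fold). The limit was 61-fold for EPN3 without EM2 replicate 2 (counts 94, 232 and 34 in EM2) and 104-fold for ATP2C2 without EM2 replicate 3. EPN3 and LRMDA lost their calls when log2(TPM + 1) was tested (limma, adjusted p = 0.057 and 0.109). SOD3 averaged 0.00 TPM in each line other than EM2. PODXL2 averaged 4.12 ± 0.64 TPM in EM2 but at most 0.02 TPM in EM1, EM3 and E, with 6.22 ± 2.43 TPM in M2 and 2.45 ± 0.44 TPM in Parental (SD, n = 3).

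TP53I11, a p53-induced gene, had the largest fitted fold of the genes higher in M1. It stood at 23, 24.1 and 19.5 TPM in M1 and had 6170 counts in M1 and 1 in EM2, a ratio of 5841 (95% counting interval 1048 to 230759; edgeR, adjusted p = 3.27e-06). It averaged 1.88 ± 0.04 TPM in E and at most 0.35 TPM in the remaining lines. ARMCX3, ARMCX1, ARMCX6 and BEX3 lie near each other on the long arm of chromosome X. ARMCX3 had 2899 counts in M1 and 1 in EM2. Its means were 22.4 TPM in M2, 13.5 in EM3, 8.68 in EM1, 2.72 in Parental and 0.36 in E. BEX3 had 3197 counts in M1 and 2 in EM2, a ratio of 1513 (95% counting interval 419 to 12502), and stood at 51.2, 45.2 and 36.4 TPM in M1. The other 5 lines had BEX3 means of 3.28 to 46.8 TPM. MEDAG, EPB41L3 (a membrane skeleton protein) and PDZRN3 (a ubiquitin ligase) had 1874, 1436 and 1011 counts in M1 and 1 count each in EM2. GABBR2, a subunit of the GABA-B receptor, and TMEM119, a membrane protein known from osteoblasts and microglia, had no count in EM2, at least 140-fold and 103-fold higher in M1. By level rather than fold, the largest rise among called genes was in ferritin heavy chain (FTH1), which stores iron, at 13091, 19271 and 21854 TPM in M1 and 3598, 3792 and 6649 TPM in EM2 (log2 fold 1.84 ± 0.20; edgeR, adjusted p = 0.000385).

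Among other genes with the largest folds lower in M1, RAB25, a small GTPase of apical recycling, stood at 0.08, 0.07 and 0.00 TPM in M1 and 21.2, 19.0 and 21.9 TPM in EM2, a ratio of 720 (95% counting interval 246 to 3493; edgeR, adjusted p = 1.54e-05). MARVELD3, a tight junction protein, had 1 count in M1 and 1042 in EM2, and the receptor EPHA1 1 count in M1 and 846 in EM2. CASP14, a caspase of cornifying skin, was at most 0.06 TPM in M1 and varied from 0.89 to 19.0 TPM in EM2, and it just missed the threshold when log2(TPM + 1) was tested (limma, adjusted p = 0.0515). TSPYL5 had 3 counts in M1 and 3431 in EM2. AZGP1 and the readthrough gene PRR5-ARHGAP8, whose reads may belong to its parts, had no count in M1, at least 102-fold and 97-fold lower. The limit for AZGP1 rests on EM2 replicate 3, since its counts in EM2 were 30, 9 and 251. It is 21-fold without that library, and the call was lost in both tests of TPM (limma, adjusted p up to 0.104). By level, the largest falls among called genes were in ribosomal protein genes. Of these, RPL7 and RPL30 lie on chromosome 8 beyond 40 Mb, where 40.3% of 397 genes tested were lower. Whether their fall belongs to that region was not tested. RPL7 stood at 2970, 2604 and 2230 TPM in M1 and 4952, 5054 and 4087 TPM in EM2 (log2 fold -0.98 ± 0.13; edgeR, adjusted p = 0.00115), and RPL30 at 1961, 1761 and 1928 TPM in M1 and 3089, 3186 and 3303 TPM in EM2 (log2 fold -0.88 ± 0.13; edgeR, adjusted p = 0.00166). RPS21, RPL26 and RPL41 were called lower by counts, but their TPM ranges in the clones overlapped and RPL41 changed sign when TPM was tested, on effective lengths of 15 to 46 bases. RPL41, RPS21 and RPL26 each lost the call when single libraries were left out, with adjusted p up to 0.971, 0.174 and 0.294 over the alternatives.

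M2 and EM3 are another pair of a clone named mesenchymal and one named intermediate, and share no library with M1 and EM2. M2 differed from EM3 in 7053 of 16416 genes (edgeR, adjusted p under 0.05), 43.0% of those tested. Of the 1843 genes higher in M1 and tested in both, 776 (42.1%, and 27.0% of the genes higher in M2) were also higher in M2 over EM3, where 18.5% of all genes tested in both were, and 313 (17.0%) were lower in M2, against 22.9%. Of the 2105 genes lower in M1 and tested in both, 1062 (50.5%, and 30.0% of the genes lower in M2) were also lower in M2, against 22.9%, and 200 (9.5%) were higher, against 18.5%. Of the list genes lower in M1, all 11 desmosome genes, 13 of 15 adherens junction, 11 of 12 tight junction and 11 of 12 epithelial factor genes were also lower in M2, and 1 adherens junction gene that was not called in M1 was higher in M2. Of the list genes higher in M1, 5 of 16 collagens were also higher in M2 and 4 were lower. For proteases and inhibitors, 4 of 11 were also higher and 2 lower, and for inflammatory genes 2 of 15 and 6. Of 10 antigen presentation genes, 9 were also higher and 1 lower. In the whole lists, M2 over EM3 was higher for 6 of 18 collagens, 4 of 21 proteases and inhibitors and 4 of 29 inflammatory genes. It was lower for 4, 10 and 12 of them. Over all genes tested in that pair, 20.7% were higher and 22.3% lower. A test of the difference between the steps called 5960 of 17709 genes (33.7%). CDH1 (difference of the log2 folds -0.98, edgeR adjusted p = 0.437), GRHL2 (0.74, 0.581) and RAB25 (-0.02, 0.994) did not pass it, and FN1 (1.78, 0.000164) and CXCL1 (12.88, 2.59e-06) did, both with a positive difference. FN1 was not called in M2 over EM3 (log2 fold 0.33). CXCL1 fell there (log2 fold -9.08; edgeR, adjusted p = 1.38e-05), so its difference holds a rise in M1 and a larger fall in M2.

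**Figure D5:**
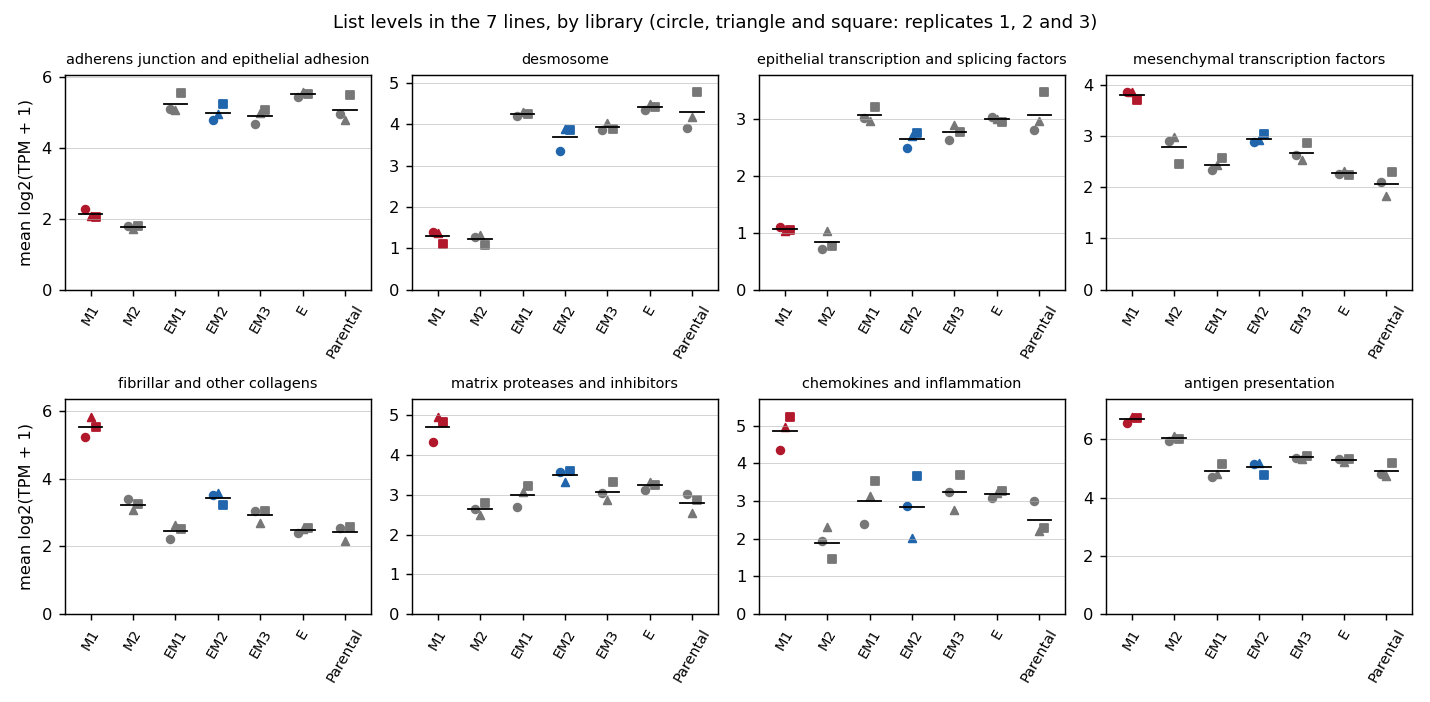
Mean log2(TPM + 1) over the genes of 8 lists (y axis) in the 3 libraries of each of the 7 lines, with a bar at the mean, M1 in red and EM2 in blue. The junction, desmosome and epithelial factor levels are low in both M1 and M2, while the collagen, protease and chemokine levels of M1 (means 5.55, 4.71 and 4.86) lie above those of every other line.

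Desmosome genes averaged 1.29 ± 0.15 in M1 on the log2(TPM + 1) scale, against 3.70 ± 0.30 in EM2, and 1.23 ± 0.12 in M2 (SD, n = 3 each). Collagens averaged 5.55 ± 0.29 in M1 and 3.44 ± 0.19 in EM2, with 3.24 ± 0.15 in M2 and 2.93 ± 0.22 or less in the remaining lines. Chemokines averaged 4.86 ± 0.45 in M1 and 2.85 ± 0.82 in EM2, and 1.89 ± 0.43 in M2. Antigen presentation averaged 6.69 ± 0.12 in M1 and 5.04 ± 0.22 in EM2, with 6.04 ± 0.08 in M2. Of 16 blood, immune and endothelial genes 5 had enough counts to be tested, 1 was called higher (PECAM1, at most 0.83 TPM) and 1 lower (HBA1, 0.99 to 1.08 TPM in M1 and 6.99 to 8.16 TPM in EM2, a gene with a near-identical copy), and HBB was listed at 0 in both clones. The list averaged 0.77 ± 0.01 in M1 and 0.83 ± 0.05 in EM2 on the log2(TPM + 1) scale (SD, n = 3 each). Of 11 neural and muscle genes 3 were tested and none was called.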

How the data were processed

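Gene expression was measured by single-end sequencing of poly(A) RNA in 21 libraries, and the 6 libraries of M1 and EM2 were compared. The authors deposited expected counts and TPM per gene. The submitters' processing notes name bcl2fastq 2.20.0.422, cutadapt 2.4, STAR 2.7.2b, RSEM 1.3.2 and hg38. The annotation release and strand setting are not given in the sources used here. Expected counts were rounded to whole numbers, since 7.61 to 8.46% of values in these libraries were not whole.

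Rounded counts were tested with edgeR 4.0.16 (quasi-likelihood, TMM, low-count filter) in R 4.3.3, with clone and library set (replicate 3 against replicates 1 and 2) as terms and 3 residual degrees of freedom. The set was used because the mean effective length was shorter in replicate 3 (1999 bases in M1 and 1895 in EM2) than in the other replicates (2365 and 2378 in M1, 2031 and 2150 in EM2). The labels do not call it a batch. Called means a Benjamini-Hochberg adjusted p under 0.05. TPM gives levels. RSEM's effective length differed between libraries for some genes, which moves TPM but not counts. In data simulated from M1 and EM2, the test called 36.9% of the 65 genes given a 2-fold difference, 88.1% of the 67 at 4-fold, 100% of the 65 at 8-fold, and 6 of 15883 left alone. The simulated counts were independent between libraries beyond the library set, with a spread that followed the mean level only. Deviations shared by M1 replicate 1 and EM2 replicate 2 were not in them, so these rates need not hold for the real libraries.

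Libraries of a clone differed by far more than sampling noise (chi-square per degree of freedom 100.5 to 272.3), so none was taken for a file deposited again, which does not show that they are separate cultures. Named genes were the 15 largest folds in each direction among called protein-coding genes with a mean CPM of at least 1 whose libraries did not overlap, the 5 highest with no count in the other clone, the 5 largest TPM differences, and genes of 29 lists. The lists and the comparison were chosen with earlier results of these data known, and the list genes described were picked after their values were seen, mostly those called in every alternative. For a clone with no count, folds are bounds against 3 counts over the clone. Intervals of ratios (95%, Clopper-Pearson) cover counting error only. Alternatives used DESeq2 1.42.0 and limma 3.58.1, other filters, pseudocounts and terms, and left out single libraries. Some genes are not reported here.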

Additional observations from a re-analysis of the deposited data

Results flagged for a closer look

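The step from EM2 to M1 was set against the step from EM3 to M2 in a test of the difference itself, over 12 libraries with no library in common. Of the 43 genes named by size of change, 19 passed it (44.2%; edgeR, adjusted p under 0.05), against 33.7% of all genes tested. Those genes were chosen by the difference between M1 and EM2, which is one term of this test, so the higher share is not independent of the choice. The values that follow are the log2 fold of M1 over EM2 minus the log2 fold of M2 over EM3. Fitted differences of genes with almost no counts in a clone depend on the prior count and are not sizes.

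The difference favoured M1 for the cadherin CDH11 (23.41), PDZRN3 (18.19), TMEM119 (14.9), the collagenase MMP13 (14.81), BEX3 (14.17), the chemokines CXCL1 (12.88) and CCL2 (10.93), ARMCX6 (10.52), ARMCX3 (9.91) and GABBR2 (8.87). It also did for the abundant transcripts FTH1 (3.04 ± 0.47, SE), FN1 (1.78 ± 0.24), HLA-B (1.75 ± 0.39) and B2M (0.70 ± 0.24). CCL2 and B2M passed narrowly (edgeR, adjusted p = 0.0186 and 0.0451). In M2 over EM3, CDH11, PDZRN3, BEX3, CXCL1 and FTH1 were called lower (edgeR), so their differences also hold a fall in M2. ARMCX3, HLA-B and B2M were called higher there, and ARMCX6 and FN1 were not called. TMEM119, MMP13, CCL2 and GABBR2 were not tested in that pair. ARMCX6, ARMCX3 and BEX3 had at most 2 counts in all of EM2, and averaged 8.45, 13.5 and 46.8 TPM in EM3.

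The difference was negative for PODXL2 (-20.88) and AZGP1 (-16.77), and for the ribosomal protein genes RPL41 (-1 ± 0.19), RPL30 (-1 ± 0.20) and RPL7 (-0.56 ± 0.19). In M2 over EM3, PODXL2, AZGP1 and RPL41 were called higher (edgeR), and RPL30 and RPL7 were not called. No technical or biological source of these differences was tested.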

How the results depend on the processing

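The 4297 calls (2101 higher, 2196 lower) numbered 2602 (1174 lower) with limma-trend on log2(TPM + 1), 2663 (1208 lower) on log2(TPM + 0.1), 2795 (1362 lower) with an absolute log2 fold of at least 1, 2647 (1273 higher, 1374 lower) without the library set term and 2804 (1351 higher, 1453 lower) in replicates 1 and 2 only, and the cause was not tested beyond the smaller number of libraries in the last. Leaving out 1 library gave 2770 to 4121 calls, 1332 to 1925 higher and 1423 to 2196 lower. Testing TPM moved the median of all genes by 0.09 to 0.10 on the log2 scale, and 54.9 and 54.6% of its calls were higher, against 48.9% by counts. RPL41 changed sign there (log2 0.02 with each pseudocount, adjusted p = 0.971 and 0.970, limma).

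The replicate numbers did not pair the samples: deviations of same-numbered M1 and EM2 libraries correlated at 0.04, -0.02 and 0.59, and M1 replicate 1 correlated best with EM2 replicate 2 (0.61). With a replicate block 3332 genes were called, 1610 higher and 1722 lower. Without M1 replicate 1 and EM2 replicate 2 together, a setting chosen after seeing the data, 3844 were called. Of 271 named or listed genes called, 187 were called the same way in every alternative that tested them. No main call was called the opposite way, except 1 gene in each TPM test. With 3 libraries a clone, 36.9% of simulated 2-fold differences were called, so differences of that size can be missed. That simulation left out the deviations shared by M1 replicate 1 and EM2 replicate 2.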

Other observations

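Several groups outside the lists also differed, and they were chosen after their values were seen. Of 78 ribosomal protein genes 30 fell in M1 and 2 rose (median log2 fold -0.45), where 13.4% of all genes fell. Of 11 ADAMTS proteases 6 rose and 1 fell, and of 7 HOXA genes 1 rose and 4 fell. Among genes of the vessel wall and coagulation, the inhibitor TFPI averaged 148 ± 10.9 TPM in M1 and 0.15 ± 0.09 TPM in EM2 (SD, n = 3), and the endothelial adhesion molecule MCAM 72.6 ± 13 TPM in M1 and 2.53 ± 0.65 TPM in EM2. FPR1, a receptor of neutrophils for bacterial peptides, averaged 103 ± 40.2 TPM in M1 and 1.49 ± 0.77 TPM in EM2, with at most 0.76 TPM in each other line. IGFBP7 averaged 116 ± 36.6 TPM in M1 and 2.2 ± 0.92 TPM in EM2. All 4 were called higher (edgeR).

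Some genes were low in EM2 among the 7 lines. TCEAL9, near the BEX genes on chromosome X, averaged 60 ± 16.9 TPM in M1 and 0.09 ± 0.05 TPM in EM2, with 9.56 to 40.7 TPM in the other lines, and glutamine synthetase (GLUL) 37.4 ± 5.78 TPM in M1 and 0.17 ± 0.15 TPM in EM2, with 3.80 to 76.7 TPM in the other lines. TCEAL4 and RPL36A, also on that arm, were not called.

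Calls were uneven along some chromosomes. On chromosome 8, of 173 genes tested in the first 40 Mb 26.0% were higher in M1 and 7.51% lower (median log2 fold 0.29), and of 397 from 40 Mb to the end 7.81% were higher and 40.3% lower (median -0.57). GRHL2, TSPYL5, RPL7 and RPL30 lie in the latter part. Lower calls also made up 57.1% of 49 genes at 190 to 200 Mb of chromosome 3 and 52.6% of 38 genes at 110 to 120 Mb of chromosome 13. DNA copy number was not analysed here.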
